A study of Sus scrofa with 20 samples.

Results

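The 200 tags described here were selected on their measured values, as the tags that rose most between early life and mature muscle. The libraries came from longissimus muscle of 2 pig breeds, Landrace (LR) and Lantang (LT), taken at 35, 49, 63, 77 and 91 days post coitum (dpc) and at 2, 28, 90, 120 and 180 days postnatal (dpn), and were read by digital gene expression (DGE), which sequences a short tag beside a CATG site of each transcript. Each breed and stage gave 1 library, made from pooled RNA of 3 males, fetuses before birth and boars after it, and the boars were castrated after 2 weeks. Breed and age are the factors the labels give for the 20 libraries, no treatment is named, and no library had a replicate. Each tag held 21 bases, of which the first 4 were CATG. Levels are given as TPM, a tag's copies divided by the clean tags of its library and multiplied by 1000000, and a tag missing from a library was given 0. For each tag the lowest level of 4 mature libraries (LR at 90 dpn and LT at 90, 120 and 180 dpn), plus 1 TPM, was divided by the highest level of the 12 early libraries (the 10 prenatal libraries and both libraries of 2 dpn), plus 1 TPM. The 200 tags with the highest ratios were taken from 801159 distinct tags and are called members, M1 to M200 in order of the ratio. Libraries of 28 dpn of both breeds and of LR at 120 and 180 dpn had no part in the choice.

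Skeletal muscle fibres form before birth and afterwards grow mainly by enlarging. During this growth, fetal and neonatal forms of contractile proteins give way to adult forms, and the fibres settle into slow, oxidative and fast, glycolytic types. A tag marks a CATG site, normally the last before the end of a transcript. Alleles, related genes, incomplete cutting at that site or a misread base can therefore give different tags. The tags were not matched to genes, since transcript sequences were not used here, and for the same reason muscle marker genes could not be checked. In bulk muscle, fewer cells of a type and less RNA per cell cannot be told apart.

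Clean tags per library ran from 2157111 to 5322022, so that 3 counts, taken as the smallest detectable amount, stood for 0.564 to 1.39 TPM. LR at 120 and 180 dpn stood apart from the other libraries. Only 0.116% and 0.224% of their clean tags held another CATG after the first, against 2.14% to 3.802% in the other 18. Results that rest on these libraries are therefore given separately. For comparison, 31911 tags with at least 3 counts in each of the 4 mature libraries served as background, and all 200 members were among them.

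The 10 members with the highest ratios are shown because they carry the clearest rise. CATG is in capitals.
M1: CATGacccgagagacagccga
M2: CATGgccagttgttctttaag
M3: CATGgcgccctacaagggggc
M4: CATGtttccgaagacccttga
M5: CATGcccaccagtggtgccct
M6: CATGagagaagagtgaaggaa
M7: CATGaagaaggcaaaatcctt
M8: CATGactctgccagcaatgtg
M9: CATGgtggaccccaacgcggc
M10: CATGggccatttattccagac
None of these tags had a more abundant tag 1 base away.

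The 10 members with the highest mean level in the mature libraries are shown because they carry most of the summed signal.
M111: CATGtggaacgagcacctggg
M57: CATGcctactaagcggggagg
M62: CATGtgaagctggcacacctg
M119: CATGcaatactggatttgtac
M150: CATGgcccgagactggcccga
M27: CATGattaagggtctctatgg
M156: CATGacttgaaacgctgtcag
M70: CATGggcaacgaatactattt
M64: CATGtcttgtgataactattc
M177: CATGtagcaattacacataag
None of them is among the 10 highest ratios.

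The ratio that chose the members had a median of 4.22 over the 200 tags and ran from 3.37 to 21.04, against a median of 0.269 over the background tags. At the edge of the set, the last member M200 had a ratio of 3.37, with at most 1.62 TPM early and at least 7.84 TPM in the mature libraries. The next tag, CATGtaccatcactaaagtac, had a ratio of 3.36 with 3.21 and 13.2 TPM, so the border did not fall at a gap. These values describe the choice and are no test of it.

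Summed over the 200 members, the share of clean tags was 0.0590% (95% Wilson interval 0.0567 to 0.0613) in LR and 0.0834% (0.0802 to 0.0868) in LT at 35 dpc. By 91 dpc it was 0.548% in LR and 0.708% in LT, and at 2 dpn it was 1.08% (1.07 to 1.09) and 0.613% (0.606 to 0.621). LR was below LT at each of the 5 prenatal stages and above it at 2 dpn. In the mature libraries the share was 8.58% in LR at 90 dpn and 9.91%, 9.26% and 7.09% in LT at 90, 120 and 180 dpn. The libraries outside the choice lay between these extremes, with 7.38% (7.35 to 7.41) in LR and 3.24% (3.22 to 3.25) in LT at 28 dpn, and 3.99% and 3.32% in LR at 120 and 180 dpn. These intervals and the limit of 3 counts reflect counting error alone and leave out the spread between animals and libraries. They take every copy as a separate molecule, so PCR copies would make the intervals too narrow. From 3 members alone came 43.7% to 63.7% of the members' counts in the 8 libraries from 28 dpn on, and M57 or M111 was the most abundant member in each of the 8.

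**Figure D1:**
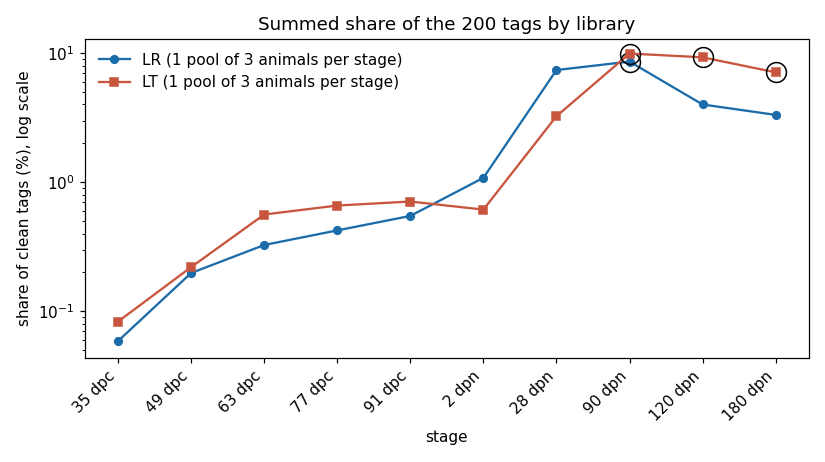
Summed share of clean tags taken by the 200 members (percent, log axis) at the 10 stages in LR (circles) and LT (squares), 1 pooled library per point, with 95% Wilson intervals that are narrower than the symbols and open circles around the 4 mature libraries used in the choice. The share at 28 dpn was 7.38% in LR and 3.24% in LT, and at 90 dpn 8.58% and 9.91%.

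M1 was absent from most early libraries, with a lowest, median and highest early level of 0, 0 and 1.28 TPM. It stood at 147 TPM in LR at 90 dpn and at 129, 122 and 47.1 TPM in LT at 90, 120 and 180 dpn, a mean of 111 ± 44.2 TPM (SD, n = 4 pools). Outside the choice, it had 259.5 TPM in LR and 71.6 TPM in LT at 28 dpn, and 9.91 and 52.0 TPM in LR at 120 and 180 dpn. All 8 libraries from 28 dpn on were above its highest early value.

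M2 was absent from all 12 early libraries. Its level was 119 TPM in LR at 90 dpn and 104, 98.1 and 19.4 TPM in LT at 90, 120 and 180 dpn. At 28 dpn it had 20.97 TPM in LR and 1.17 TPM in LT, and at 120 and 180 dpn LR had 128 and 77.1 TPM. LT at 28 dpn was thus the one later library in which it was near the detection floor.

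M4 and M7 were likewise far lower in LT than in LR at 28 dpn. M4 had 52.6 TPM in LR and 2.15 TPM in LT at 28 dpn, against 381 TPM in LR at 90 dpn and 185, 124 and 35.8 TPM in LT from 90 to 180 dpn. M7 had 32.7 TPM in LR and 0.390 TPM in LT at 28 dpn, against 164 TPM in LR at 90 dpn and 94.9, 88.3 and 23.9 TPM in LT. Their highest early levels were 1.28 and 0.939 TPM. They parted in the later LR libraries, where M4 had 388 and 209.5 TPM and M7 had 4.08 and 3.59 TPM.

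M5 was present in every library and had an early range of 6.94 to 62.9 TPM. The mature libraries held 1118 TPM in LR at 90 dpn and 985, 1398 and 1210.0 TPM in LT. It had 870.4 TPM in LR but 77.0 TPM in LT at 28 dpn, and 5.83 and 6.36 TPM in LR at 120 and 180 dpn, below its lowest early value. M8 was the steadiest of the first 10, with 46.1, 47.3, 42.0 and 72.4 TPM in LR and 19.7, 63.2, 42.3 and 44.3 TPM in LT from 28 to 180 dpn, and at most 2.89 TPM early. Every later library of M8 exceeded its early maximum, in both breeds.

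M57 was the most abundant member in LR from 28 dpn on. Its early levels ran from 99.2 to 1806 TPM with a median of 652 TPM, and from 28 to 180 dpn it had 24095, 19896, 13537 and 14781 TPM in LR and 7421, 10546, 19629 and 9214 TPM in LT. M111 had an early range of 25.5 to 3140.5 TPM and led in LT at 90 and 180 dpn, with 4332, 26814, 17760.2 and 23905 TPM in LT from 28 to 180 dpn. In LR it had 13006 and 12616 TPM at 28 and 90 dpn but 8.75 and 6.36 TPM at 120 and 180 dpn. Over the 4 mature libraries M111 had 20274 ± 6349 TPM and M57 14822 ± 5732 TPM (SD, n = 4 pools). So both leading members were above their early maxima at 28 and 90 dpn in both breeds, and they parted in the later LR libraries, where M111 was below its early minimum.

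Of the other 8 most abundant members, M119 and M177 stayed above their early maxima in LR at 120 and 180 dpn, and the other 6 did not. M119 had 4979 TPM in LR at 90 dpn, then 3303 and 978 TPM, while M177 had 3186, then 2143 and 2228 TPM. M150 had 1967 TPM in LR at 90 dpn, then 4.66 and 3.59 TPM, although LT held 3983, 3027 and 4167 TPM from 90 to 180 dpn. M62, M27, M156, M70 and M64 lay between 2996 and 3959.9 TPM in LR at 90 dpn and between 21.9 and 278 TPM at 120 and 180 dpn.

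**Figure D2:**
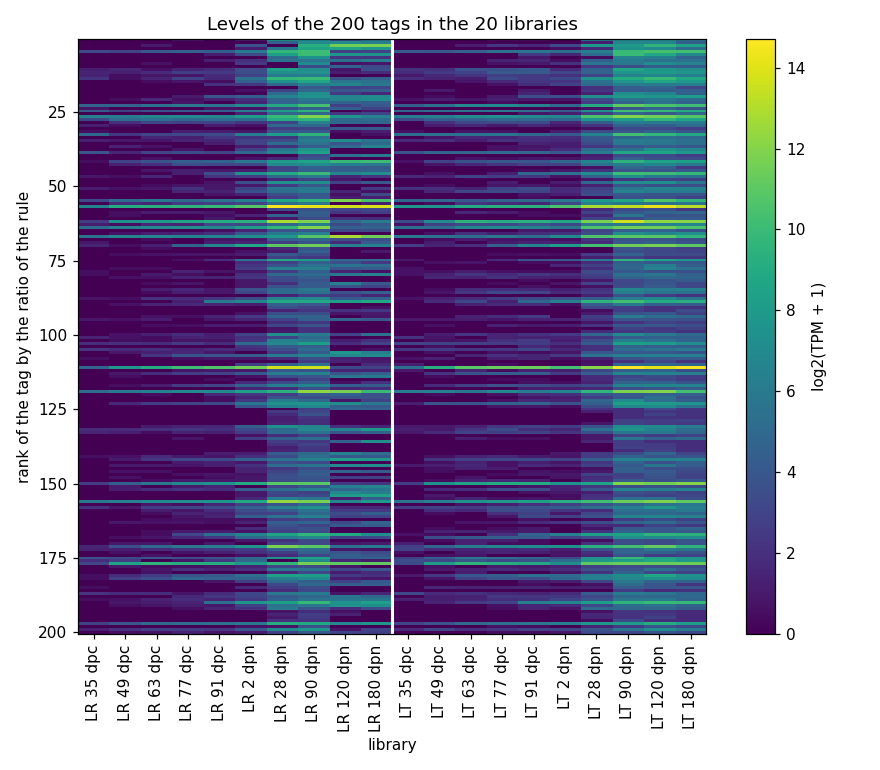
Levels of the 200 members as log2(TPM + 1), 1 row per member by rank of the ratio and 1 column per library, LR left and LT right of the white line. Levels are low through 2 dpn, intermediate in LT at 28 dpn and high at 90 dpn, and in LR at 120 and 180 dpn 56 and 51 members are absent.

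Among the early libraries, 32 members were absent from all 12 and 37 from the 10 prenatal libraries. For 104 members the highest early level was at 2 dpn, in LR for 95 of them and in LT for 9, and for 26 it was at 91 dpc. The mean of the 4 mature libraries was below 10 TPM for 41 members and at least 100 TPM for 51. The highest of the 4 mature values was on median 2.14 times the lowest, with a range of 1.08 to 10.6, and over the background tags 2.47 times. LT at 180 dpn held the lowest mature value of 94 members. All of these values had been used in the choice. The counts of members were not made over the background tags, and no difference between breeds or ages is read from them.

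The libraries outside the choice show how much of the gain appeared elsewhere. A member was counted as gained in a library when its level plus 1 TPM was at least 2-fold above its early maximum plus 1 TPM. In LR at 28 dpn 159 members were gained, where 3.67% of the background tags were. In LT at 28 dpn 87 were gained, with a background of 2.31%, and 71 members were gained in both breeds, where 1.05% of the background tags were. In LR at 120 dpn 75 were gained (background 5.11%) and in LR at 180 dpn 84 (5.52%). Altogether 30 members were gained in all 4 libraries, where 0.404% of the background tags were, and 15 in none. The early maximum was low by the choice itself, so these counts were favoured by it, and only the later level is independent of the choice.

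Relative to the mature libraries, members stood lower at 28 dpn in LT than in LR. LR at 28 dpn was at a median log2 ratio of -0.81 to LR at 90 dpn (quartiles -1.54 and -0.27), against -0.07 over the background tags. LT at 28 dpn was at -1.94 to the mean of LT at 90, 120 and 180 dpn (quartiles -2.63 and -1.23), against -0.29. The mature level had been selected to be high, which pulls both medians down. Compared with 2 dpn, the median ratio at 28 dpn was 4.08 in LR and 2.83 in LT on the TPM + 1 scale, and the background medians of the log2 ratio were -0.16 and -0.38. Of the 200, 196 in LR and 198 in LT were at or above the level of 2 dpn, where 43.7% and 36.9% of the background tags were. The libraries of 2 dpn had been used in the choice, as libraries in which members were low, so nothing is read from these values.

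Between the breeds at 28 dpn, both libraries being outside the choice, 160 members were higher in LR and 40 in LT, where 55.2% of the background tags were higher in LR. At least 2-fold higher in LR were 110 members, where 17.6% of the background tags were, and at least 2-fold higher in LT were 16, where 11.1% were. Taken as LT over LR, the median log2 ratio was -1.23 over the members and -0.13 over the background tags. At 90 dpn 20 members were at least 2-fold higher in LR (background 12.8%) and 23 in LT (11.9%), with a median of -0.02, but both libraries of 90 dpn had been used in the choice. TMM scaling, which allows for differences in composition, raised LT relative to LR at 28 dpn by 0.27 on the log2 scale of TPM, and by less for low tags once 1 TPM was added. The median was then -1.06 over the members and 0.06 over the background tags. Adding 1 TPM shrinks the ratios of low tags. The mean level in the mature libraries had a median of 4.68 TPM over the background tags and 28.4 TPM over the members. The 2-fold shares and medians therefore do not compare members with background tags of like level. With 1 library per breed and stage these counts compare pools and have no replicate check.

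The members with the largest excess in LR at 28 dpn by log2 ratio were M7, at -4.60, M78, at -4.50, and M155, at -4.14. M78, CATGcctactacgcggggagg, had 83.2 TPM in LR and 2.73 TPM in LT at 28 dpn, and 77.9 and 28.3 TPM at 90 dpn. M155, CATGgatgtggcgggatctga, had 82.2 and 3.71 TPM at 28 dpn, and 52.8 and 41.7 TPM at 90 dpn. Both had a more abundant tag 1 base away, M57 in the case of M78, and are not independent of that neighbour. At 28 dpn M57 had 24095 TPM in LR and 7421 TPM in LT. The neighbour of M155 had 534 TPM in LR and 451 TPM in LT, and made up 86.7% and 99.2% of the pair. Both neighbours thus differed less between the breeds than M78 and M155 did.

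**Figure D3:**
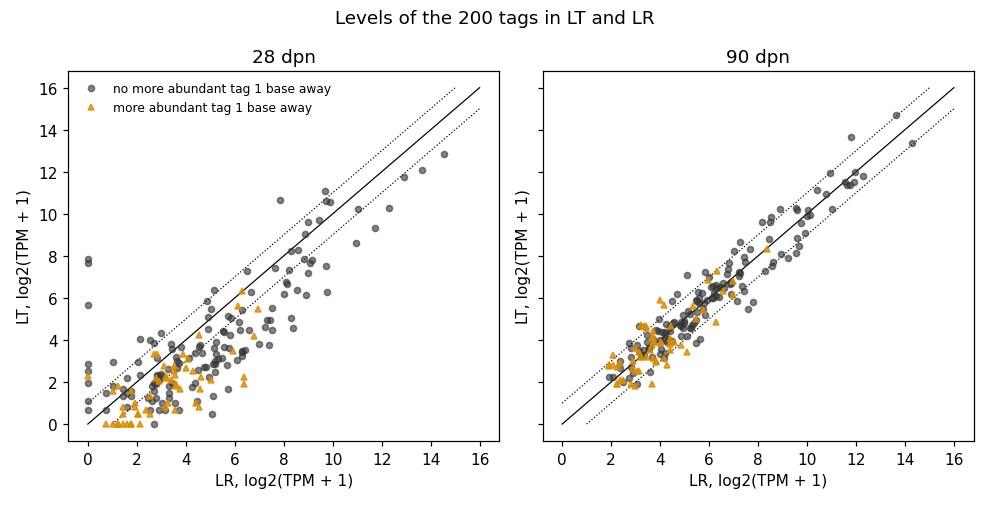
Level of each of the 200 members in LT (y axis) against LR (x axis), both as log2(TPM + 1), at 28 dpn (left) and 90 dpn (right), with the line of equality and dotted lines at 2-fold; triangles are the 57 members with a more abundant tag 1 base away. At 28 dpn 110 members lie below the lower dotted line and 16 above the upper one, and at 90 dpn 20 and 23.

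Taking 28 and 90 dpn together, with the stages standing in for replicates and stage as a block, edgeR's quasi-likelihood test called 0 of the 194 members that passed its low-count filter, and DESeq2 called 0. Over all 27073 tags tested edgeR called 1.01% higher in LT and 1.07% higher in LR. At an unadjusted p below 0.05 it had 10 members higher in LR, where 2.87% of the tags tested were, and 1 higher in LT, M176, where 3.4% were. DESeq2 had 17 members at an unadjusted p below 0.05, 1 of them higher in LT, where 5.17% of the tags tested passed in either direction. The lowest adjusted p of a member was 0.297 in edgeR, 0.128 in edgeR with scaling by total clean tags and 0.0589 in DESeq2. Stage being a block, a tag's own spread is how far its LT to LR difference varied between 28 and 90 dpn, with 1 residual degree of freedom. Both programs draw that spread towards the spread of the other tags. These p-values therefore rest to a large part on the spread shared over tags. The median log2 ratio of the members, -1.23 at 28 dpn and -0.02 at 90 dpn, shows such a variation, which entered the error of the test. Without LT at 90 dpn, in a fit with no block, 31 members were called higher in LR, where 2.14% of the tags tested were, and this fit sets LT at 28 dpn alone against both LR libraries. Without LR at 90 dpn 3 members were called higher in LT, M3, M9 and M176, where 0.281% of the tags tested were.

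M3, M9 and M176 were the members with the largest excess in LT at 28 dpn, and they were absent from LR at that stage. Altogether 9 members, M3, M9, M10, M17, M40, M59, M109, M125 and M176, had no count in LR at 28 dpn, where 3 counts stood for 1.03 TPM. Of the background tags 4.06% were absent there, so the number of absent members was near the background. LT at 28 dpn held 231 TPM of M3, at least 224-fold higher, 203 TPM of M176, at least 197-fold higher, and 50.1 TPM of M9, at least 48.6-fold higher. For 6 of the 9 a tag that differed by 1 base had counts in LR at 28 dpn, 1622 for M3, 371 for M9, 49 for M17, 21 for M40, 12 for M125 and 2094 for M176. For M10, M59 and M109 no such tag had a count there.

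The pairs are shown with the differing base in capitals, because they bear on the breed difference. Substitutions name the member's base, its position counted from 1 at the C of CATG, and the base of the other tag, here called the counterpart.
M3: catggcgccctacaaGggggc
M3 counterpart, G16A: catggcgccctacaaAggggc
M9: catggtggaccccaacgcGgc
M9 counterpart, G19A: catggtggaccccaacgcAgc
M17: catgaggcGgcctcggtgaac
M17 counterpart, G9T: catgaggcTgcctcggtgaac
M40: catgcggcggatgcagtaCtc
M40 counterpart, C19T: catgcggcggatgcagtaTtc
M55: catgtcatccggcaGaatgcg
M55 counterpart, G15A: catgtcatccggcaAaatgcg
M67: catgtaatgtaaGaagaaaaa
M67 counterpart, G13A: catgtaatgtaaAaagaaaaa
M176: catgtctccacggcaacGgaa
M176 counterpart, G18A: catgtctccacggcaacAgaa
M125 differs from M3 by 1 base and is part of the same family.

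In M3 the counterpart had 558, 318, 3205 and 849 TPM in LR from 28 to 180 dpn, beside 0, 599.9, 2889 and 3386 TPM of the member itself. In LT the counterpart was at 0 in 9 of the 10 libraries and at 0.609 TPM at 120 dpn, while M3 had 231, 234, 749 and 344 TPM. Taken as a pair, LR at 28 dpn held 558 TPM and LR at 90 dpn 917 TPM. The level of the pair in LR at 28 dpn was thus above that of M3 in LT at the same stage, and M3 itself had no count there.

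The counterpart of M9 had 128 and 89.5 TPM in LR at 28 and 90 dpn, 1.46 and 0 TPM at 120 and 180 dpn, and no count in LT. That of M176 had 719.8 and 168 TPM in LR at 28 and 90 dpn, beside 0 and 129 TPM of M176, and likewise no count in LT, where M176 had 203, 295, 443 and 226 TPM. At lower levels, the M17 counterpart had 16.8, 4.64, 6.996 and 1.93 TPM in LR, and the M40 counterpart 7.22, 4.17, 37.6 and 22.1 TPM. Both were absent from LT, apart from 1.36 TPM of the M40 counterpart at 180 dpn. M55 and M67 were present in LR at 28 dpn, with 449 and 231 TPM, and their counterparts had 707 and 404 TPM there and at most 2 counts in any LT library.

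Over the whole set, 27 members had 32 such counterparts, defined as tags 1 base away that exceeded the member in at least 1 of the 8 libraries from 28 dpn on and were below it in another, with at least 20 counts of the pair in each of these. The 7 pairs printed above are those whose counterpart had at most 5 counts in every LT library. In 1 pair the counterpart had at most 5 counts in every LR library. In 11 of the 32 the counterpart exceeded the member in LR libraries only, in 10 in LT libraries only and in 11 in both breeds. The counterpart led in LR at 28 dpn in 17 pairs. An A with G or C with T change separated 19 of the pairs. Such counterparts were not counted over the background tags. Members had to be high in the mature libraries of the choice, of which more were LT than LR. Pairs whose counterpart was scarce in LT were thus favoured by the choice. No difference between breeds and no trait of the set is read from these counts.

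**Figure D4:**
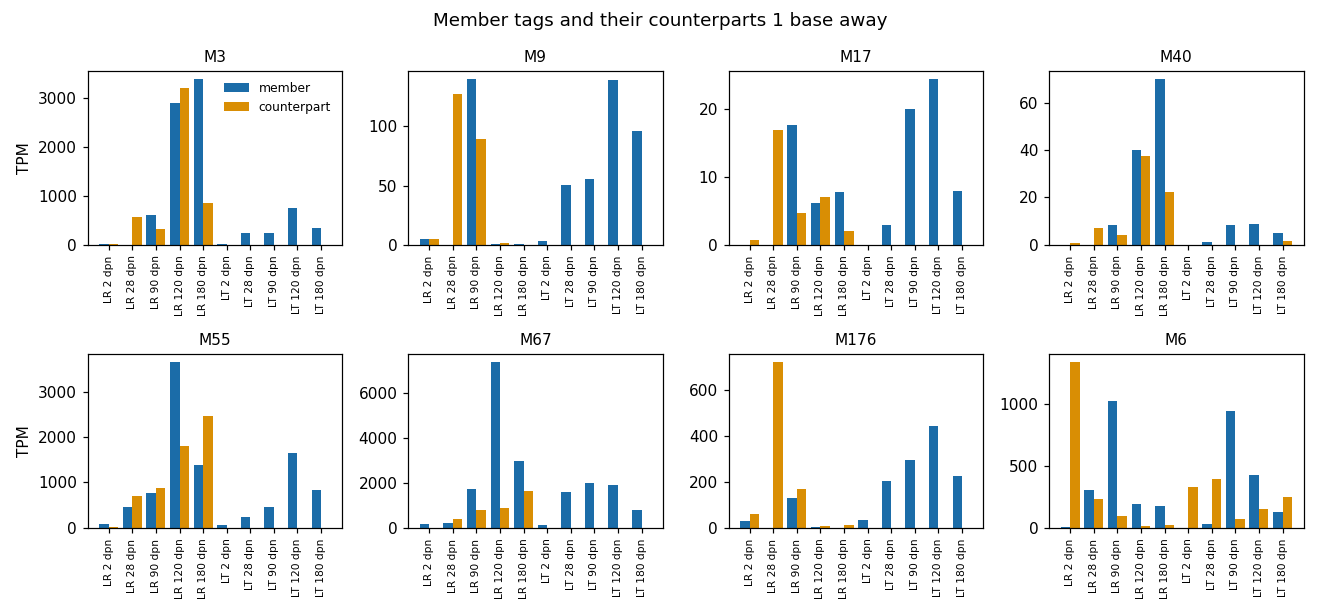
Level in TPM (linear axes from 0, a scale of its own in each panel) of 8 members (blue) and of their counterparts 1 base away (orange) from 2 to 180 dpn in LR and LT, 1 pooled library per bar. In M3, M9, M17, M40 and M176 the member is at 0 in LR at 28 dpn where the counterpart is not, and in LT the counterparts of the 7 members other than M6 have at most 4 counts in any library.

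In 3 other pairs the counterpart had its highest level in an early library.
M6: catgagagAagagtgaaggaa
M6 counterpart, A9G: catgagagGagagtgaaggaa
M14: catggagcacatccgTgtggg
M14 counterpart, T16C: catggagcacatccgCgtggg
M38: catgaccAtggtggaccccaa
M38 counterpart, A8C: catgaccCtggtggaccccaa
At 2 dpn the M6 counterpart had 1342 TPM in LR and 335 TPM in LT, where M6 had 8.66 and 2.04 TPM. At 90 dpn M6 led, with 1031 TPM in LR and 945 TPM in LT, and the counterpart had 97.8 and 68.6 TPM. LT at 28 dpn held more of the counterpart (397 TPM) than of M6 (32.2 TPM), and LR at 28 dpn held 235 and 309 TPM. In LT at 180 dpn the counterpart led again, with 248 TPM against 125 TPM of M6.

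The M14 counterpart was present in all 12 early libraries, at 70.7 to 727 TPM with a median of 169 TPM, where M14 had 0.448 to 45.9 TPM. In the mature libraries M14 had 976 TPM in LR at 90 dpn and 545, 936 and 439 TPM in LT, and the counterpart 92.3 TPM and 46.3, 146 and 159 TPM. The M38 counterpart had 22.4 to 481 TPM early, where M38 had at most 6.42 TPM, and 108 TPM in LR at 90 dpn and 19.48, 104 and 113 TPM in LT. Members M38 and M14 thus passed their counterparts in LR at 90 dpn and in LT at 90 and 120 dpn, and at 180 dpn in LT M14 led and M38, with 101 TPM, did not.

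Another feature of the set was its one-base families. A more abundant tag 1 base away in the mature libraries was found for 57 members (28.5%), where 9.38% of the background tags had one. For 52 of them the neighbour was at least 10 times as abundant, for 43 at least 100 times, and for 40 it was itself a member. Followed to its most abundant tag, the set of 200 came from 155 distinct tags, and these families are not independent members. Their variants stood at a median of 0.329% of the most abundant tag over all libraries, and 47 of the 57 were under 1%. Among the 52 variants that were 1 substitution from it, 30 were A to C. The study's methods name sequencing error as a possible source of a mismatched base and call it very infrequent. Whether these variants were misread bases or transcripts of their own was not tested.

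The largest family was that of M111, with 11 variants among the members, and those of M57 and M62 had 6 and 4. Some of them are shown, with the base that differs in capitals.
M111: CATGtggaacgagcacctggg
M66, A12C: catgtggaacgCgcacctggg
M85, A8C: catgtggCacgagcacctggg
M57: CATGcctactaagcggggagg
M43, A19C: catgcctactaagcggggCgg
M78, A12C: catgcctactaCgcggggagg
M62: CATGtgaagctggcacacctg
M60, A8C: catgtgaCgctggcacacctg
In the 4 mature libraries M66 stood at 0.547% to 0.638% of M111 and M43 at 0.552% to 0.655% of M57, so that both kept to a narrow share. Other variants varied more, such as M135, at 0.123% to 0.312% of M111, and M68, at 0.0652% to 0.142% of M57. These libraries had been used in the choice. M78 ranged from 0.269% to 0.481% of M57. The members M18 and M24, CATGctcttcagtcagatgac and CATGctcttcagtcagatgat, which differ by C21T, were the pair nearest in level, with M24 at 58.3% to 124% of M18.

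Many members were lower in LR at 120 and 180 dpn than in LR at 90 dpn. In LR at 120 dpn 56 were absent, a smaller share than the 41.8% of the background tags, whose levels were lower to begin with, and 119 were at least 4-fold below LR at 90 dpn on the TPM + 1 scale, where 29.5% of the background tags were. In LR at 180 dpn 51 were absent, where 41.7% of the background tags were, and 112 were at least 4-fold below, with a background of 30.2%, and 108 members were below in both, where 26.6% of the background tags were. At least 4-fold above LR at 90 dpn were 10 members at 120 dpn (background 3.19%) and 9 at 180 dpn (4.1%). Member medians of the log2 ratio were -2.39 and -2.25, and background medians -1.26 and -1.30. With 1 TPM added, a tag of low level at 90 dpn cannot fall 4-fold even when it vanishes. The mean level in the mature libraries had a median of 4.68 TPM over the background tags and 28.4 TPM over the members. These shares and medians therefore do not show that members fell more than background tags of like level. LR at 90 dpn had been used in the choice and its levels were selected to be high. The part of the low share of tags with a further CATG in these libraries was not tested.

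M111 was the member with the lowest log2 ratio of LR at 120 to 90 dpn, -10.34, followed by M25 and M33. M25, CATGggtggatccttggggag, had 766 TPM in LR at 90 dpn, no count at 120 dpn, so that it was at least 876-fold lower, and 0.829 TPM at 180 dpn, while LT held 1162, 893 and 542 TPM. M33, CATGttccccacaataagatt, had 758 TPM, no count, at least 867-fold lower, and 0.553 TPM, against 1238, 863 and 460.3 TPM in LT. For both, the early levels of LR and LT, 6.49 to 72.2 TPM and 4.26 to 75.1 TPM, lay above those of LR at 120 and 180 dpn.

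The members with the highest ratio were M106, M153 and M154, at log2 values of 3.62, 4.02 and 4.93. M106, CATGgagatttggttttaaat, had 17.6 TPM in LR at 90 dpn, 228 and 79.3 TPM at 120 and 180 dpn, and 11.9 to 15.2 TPM in LT. M153, CATGcgcctgtggtctgccaa, had 6.03 TPM, then 113 and 71.9 TPM, and 6.48 to 11.4 TPM in LT from 90 to 180 dpn. M154, CATGcttttctccactcaaat, had 8.34 TPM, then 285 and 350.5 TPM, and 6.09 to 8.09 TPM in LT from 90 to 180 dpn. M154 differs by G21T from the tag CATGcttttctccactcaaag, no member, which had 15667 TPM in LR at 90 dpn and 33086 and 40404 TPM at 120 and 180 dpn. The level of that tag in LR at 120 and 180 dpn exceeded that of 90 dpn by a smaller factor than the level of M154 did.

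Sequence features were counted in the members and in the background. A further CATG was found in 8 members, where 3.56% of the background tags had one, and all 8 were at least 4-fold below LR at 90 dpn in LR at 120 and 180 dpn, with 6 of the 8 absent from each. Of the 192 others, 111 and 104 were at least 4-fold below, so the low levels were not confined to members with a further CATG. Such tags made up 0.116% and 0.224% of all clean tags in these libraries, against 2.57% in LR at 90 dpn. The background tags were not split in this way. Nothing particular to the members is therefore read from these counts. AATAAA or ATTAAA, the usual polyadenylation signals, occurred in 1 member, read on the tag strand, where 2.51% of the background tags had one. The 17 bases after CATG had a median GC content of 58.8% in the members, of 52.9% in the 143 without a more abundant neighbour, and of 41.2% in the background.

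Tags with a further CATG can overlap the tag that starts there. Some of these pairs are shown with both CATG sites in capitals.
M38: CATGacCATGgtggaccccaa
M9: CATGgtggaccccaacgcggc
M101: CATGcccCATGccctaaggcc
M173: CATGccctaaggcccctgctc
M158: CATGtggacCATGaggtccac
tag starting at the second site of M158: CATGaggtccaccaccctgtt
M181: CATGgcCATGcagaaaatctt
tag starting at the second site of M181: CATGcagaaaatctttgcccg
M38 shares its last 15 bases with the start of M9, and M101 its last 14 with M173, so these members share sequence and are not counted as independent. M101 had 32.9 TPM in LR at 90 dpn and no count at 120 and 180 dpn, while M173 had 22.3, 13.7 and 9.67 TPM. M158 had 170.1 TPM in LR at 90 dpn, then 2.04 and 1.93 TPM, and the tag at its second site had 251, 752 and 1032 TPM. In LT from 90 to 180 dpn M158 had 80.7, 224 and 79.1 TPM and that tag 190.5, 311 and 90.7 TPM. For M38 and M9 both tags were at or below 0.829 TPM in LR at 120 and 180 dpn, so in this pair the tag at the second site was low as well.

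**Figure D5:**
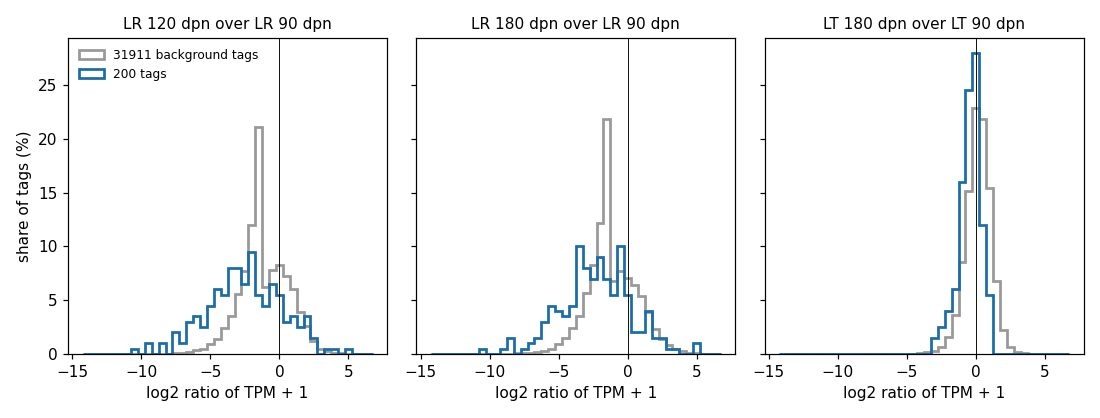
Distribution of log2 ratios of TPM + 1 in the 200 members (blue) and the 31911 background tags (grey), as a share of tags in percent, for LR at 120 over 90 dpn, LR at 180 over 90 dpn and LT at 180 over 90 dpn. The member medians are -2.39, -2.25 and -0.32, and the background medians -1.26, -1.30 and 0.20.

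In LT members were lower at 180 dpn than at the earlier mature stages. At 180 dpn 46 members were at least 2-fold below LT at 90 dpn, where 9.76% of the background tags were, and 4 were at least 2-fold above, where 16.4% were. Set against LT at 120 dpn, LT at 180 dpn was at least 2-fold lower for 38 members (background 4.26%) and higher for 1 (8.61%). Across the members 152 were below and 48 above LT at 120 dpn, with a median log2 ratio of -0.39 against 0.11 over the background tags. All of these libraries were used in the choice, so the values are a description. The background tags had lower levels than the members, so these shares and medians do not compare tags of like level. With TMM scaling, which shifted the ratios of 180 to 120 dpn by -0.20, the count at least 2-fold lower was 63.

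A test of 180 against 120 dpn over both breeds, with breed as a block, called 0 of 192 members tested by edgeR's quasi-likelihood test, and 0 of all 26234 tags (0% in either direction). DESeq2 called 0 members and 2 tags. At an unadjusted p below 0.05 edgeR had 6 members (M19, M55, M67, M83, M119 and M140) higher at 120 dpn, where 0.431% of the tags tested were, and 0 higher at 180 dpn, where 0.618% were. LT libraries of this test had been used in the choice and those of LR stood apart. Within LR, 91 members were higher and 62 lower at 180 than at 120 dpn, with 47 equal.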

How the data were processed

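The authors deposited, for all 20 libraries, unnormalized counts of distinct clean tags and a TPM column (counts scaled to 1000000 clean tags). They had removed adaptors, empty and low-quality reads and tags seen once. The submitters' processing notes name Bowtie 0.12.3 and NCBI36, and per the study's methods the reference tags used to identify clean tags came from pig RefSeq and UniGene sequences under the NCBI36 name. That identification was not used here. TPM was recomputed from the counts, and only counts entered the tests. Groups came from the sample titles. The members and lists were chosen with earlier results of these data known. Tags named were the 10 highest ratios, the 10 highest mature means, the 3 highest and 3 lowest ratios of LR at 120 to 90 dpn and of LT to LR at 28 dpn, and the tags at the border of the set. Pairs 1 base apart and overlapping pairs were chosen after their values were seen.

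Tests used edgeR 4.0.16 (R 4.3.3) with TMM, its low-count filter and quasi-likelihood tests. Benjamini-Hochberg adjustment was made over all tags tested, and tags were called at an adjusted p below 0.05. Since no library had a replicate, a lack of called members is not read as a lack of difference. DESeq2 1.42.0 and other scalings, filters and folds were alternatives. Lists of genes and marker genes could not be applied to unnamed tags. Python 3.11.15, pandas 2.3.3, scipy 1.17.1 and matplotlib 3.10.9 were used.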

Additional observations from a re-analysis of the deposited data

How the results depend on the processing

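Both tests had a block, stage for the breeds and breed for the ages, and without the block 0 members were called in either. Of 68 alternative values for 15 results, 55 stayed close to the value reported (counts within 1.5 times of it) and 13 did not. Leaving out 1 library at a time gave 0 to 31 members called between LT and LR at 28 and 90 dpn, and 0 for 180 against 120 dpn, the other group's spread standing in for that of a lone library. In these fits the median log2 change of the members did change sign, from -0.62 for LT over LR to 0.36 without LR at 90 dpn and 0.40 without LT at 28 dpn, and from -0.22 for 180 over 120 dpn to 2.19 without LT at 120 dpn. At a fold of 4, members gained at 28 dpn were 90 in LR and 27 in LT, and those past it between the breeds were 60 higher in LR and 7 higher in LT. With TPM + 5, LT at 28 dpn had 48 gained members and 10 were 2-fold higher in LT than in LR. After merging of tags 1 base apart, chosen after seeing the data, 10 of 155 were higher in LT and 86 in LR. Without LR at 120 and 180 dpn, also chosen after seeing the data, 71 members were gained in all remaining libraries. Of the 200 members, 124 were chosen again with TPM + 5, 70 with LR at 120 and 180 dpn added to the minimum, 137 after merging, and 130 to 192 when 1 mature library was left out, with the lowest number, 130, without LT at 180 dpn. The cause of these moves was not tested beyond the construction of each alternative. Matching of tags to genes was not run. A single library per breed and stage limits every comparison, and at 0.564 to 1.39 TPM for 3 counts, absence of a tag below these levels was not detectable.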
